A study of Mus musculus with 11 samples.

Results

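The mouse embryo at the 2PN stage, when the maternal and paternal pronuclei lie apart in the fertilized egg, was compared with the unfertilized oocyte for its miRNAs and endogenous siRNAs. The comparison rests on 2 of the 11 small RNA libraries of the series, the wild-type (WT) 2PN library and the WT oocyte library, and covers all 2304 listed features, of which 1592 are mature miRNAs and 712 are endo-siRNAs. Oocytes came from the oviducts of superovulated WT mice, and WT 2PN embryos were made by injecting WT sperm into oocytes (ICSI). All mice were adult and labelled C57BL/6. Further libraries are used as context: WT sperm from the cauda epididymis (2 libraries), and 2PN embryos made with sperm of Dicer cKO or Drosha cKO males (1 library each), which lost the gene in the germ line through Cre-loxP recombination. The labels name WT as the source of the oocytes. The sources used here do not give the Cre driver, the number of oocytes or embryos in a library, or the time from injection to collection. The design text speaks of duplicates sequenced on an Ion Torrent Proton, whereas the labels give 1 oocyte library and 1 WT 2PN library and name an Illumina library preparation. With 1 library a side, no test of the stages was possible and no p-value is given. The 95% intervals printed with shares and ratios cover counting error only, and not variation between animals or libraries. PCR reads without molecular identifiers are not independent molecules, so the intervals may be too narrow even for counting error. Every difference is a difference between 2 libraries.

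A miRNA is cut from its primary transcript by Drosha in the nucleus and from its hairpin by Dicer in the cytoplasm, and either arm of the hairpin (5p or 3p) can be loaded onto an Argonaute protein. The loaded strand finds its target mRNAs mainly through its seed, bases 2 to 8 from the 5′ end. Mouse oocytes carry miRNAs but show little miRNA repression, and depend more on endo-siRNAs, which Dicer makes from long double-stranded RNA without Drosha. At fertilization the egg contributes nearly all of the cytoplasm and the sperm brings a small load of its own RNA. The miR-290 to miR-295 cluster is known as the main miRNA cluster of the early embryo and of embryonic stem cells.

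The mature sequences of the miRNAs that carry the comparison are printed 5′ to 3′ with the seed in capitals, from RefSeq on mouse build GRCm38.p6. The first set holds abundant miRNAs of both libraries.
miR-30c-5p: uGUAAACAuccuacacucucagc
miR-183-5p: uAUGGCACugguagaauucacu
miR-195a-5p: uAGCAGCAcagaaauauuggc
let-7f-5p: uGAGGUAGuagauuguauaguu
miR-7a-1-3p: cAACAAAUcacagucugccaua
The next set holds miRNAs whose share was at least 2-fold higher in the 2PN library; miR-16-5p has the same seed as miR-195a-5p above.
miR-23a-3p: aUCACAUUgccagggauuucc
miR-16-5p: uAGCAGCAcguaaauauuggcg
miR-290a-5p: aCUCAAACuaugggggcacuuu
miR-6926-3p: uCACCAUCccugucuccauag
The set of miRNAs at least 2-fold lower is shown for its contrast with these.
miR-155-5p: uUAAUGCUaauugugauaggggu
miR-5100: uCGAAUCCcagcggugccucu
The pair of miR-19 sequences, abundant in sperm, shares a seed.
miR-19a-3p: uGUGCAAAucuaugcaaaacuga
miR-19b-3p: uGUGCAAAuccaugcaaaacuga
Mature miR-30c-5p can come from Mir30c-1 (chr4:120769584-120769606, minus strand, within the span of Nfyc) or from Mir30c-2 (chr1:23291714-23291736, plus strand), which give the same mature sequence. Mature miR-183-5p lies at chr6:30169711-30169732 (minus strand), miR-195a-5p at chr11:70235062-70235082 (plus strand), miR-155-5p at chr16:84714143-84714165 (plus strand) and miR-23a-3p at chr8:84208563-84208583 (plus strand). No spanning RefSeq gene was found for these, but gene symbols starting with Mir or Let were left out of the search. A host gene named in that way would have been missed.

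The oocyte library held 5530 reads on the listed features and the WT 2PN library 3243, which is 0.489% and 0.374% of the total by which the deposited RPM values (reads scaled to a common library total) were divided. What else that total counts is not stated. A feature with 0 reads could still hold 3 reads, a share of 0.0543% in the oocyte and 0.0925% in the 2PN library. Shares below are percentages of the listed reads of a library. Summed RPM was 4889 in the oocyte and 3740 in the 2PN library, 1.31-fold lower in the 2PN, so every ratio is 0.39 lower on the log2 scale in RPM than in shares. RPM is scaled to the total of each library, so a lower sum means a smaller part of that total. Neither the number of oocytes or embryos nor the RNA in each can be read from it. At least 1 read was found for 299 features in the oocyte and 249 in the 2PN library, and 226.5 features would be expected in the oocyte at the 2PN depth. Of the 401 features read in either library, 147 were read in both. The 152 features read in the oocyte alone summed to 218 reads, with at most 7 reads each, and the 102 read in the 2PN alone to 126 reads, with at most 5 each. Whether such features are absent from the other library cannot be told at this depth.

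Both libraries were carried by few miRNAs, the 2PN library slightly less so. The most abundant feature held 27.3% of the oocyte reads and 22.1% of the 2PN reads, the top 2 held 52.8% and 42.1%, and the top 10 held 77.7% and 73.9%. The effective number of features (inverse Simpson index) was 6.57 in the oocyte and 9.44 in the 2PN library.

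**Figure D1:**
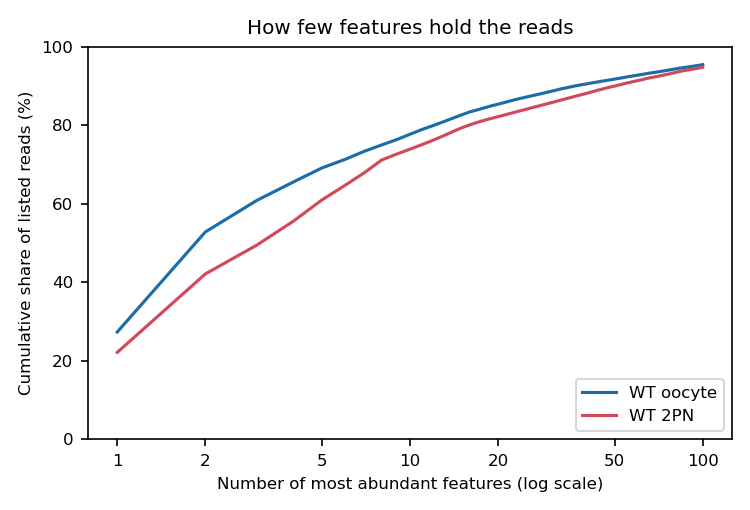
Cumulative share of listed reads (vertical axis, %) against the number of most abundant features taken (horizontal axis, log scale), as 1 line per library. The oocyte line starts at 27.3% and reaches 52.8% at 2 features, above the 2PN line at 22.1% and 42.1%, and the lines approach each other at 100 features.

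The same 2 miRNAs led both libraries. miR-30c-5p, of the miR-30 family, had 1510 reads in the oocyte (27.3%, interval 26.1% to 28.5%) and 717 in the 2PN library (22.1%, interval 20.7% to 23.6%), a ratio of shares of 0.810 (interval 0.740 to 0.886). miR-183-5p, best known from sensory cells, had 1412 reads (25.5%) and 649 reads (20.01%), a ratio of 0.784 (interval 0.713 to 0.861). Both intervals lie below 1 and far from a 2-fold difference. miR-195a-5p, of the miR-15/16 family known for restraining the cell cycle, came next with 445 reads (8.05%) and 239 reads (7.37%), and its ratio of 0.916 had an interval of 0.779 to 1.07 that includes 1.

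The next 5 miRNAs had larger shares in the 2PN library. miR-23b-3p had 260 reads in the oocyte and 198 in the 2PN library (ratio 1.30, interval 1.07 to 1.57). miR-7a-1-3p had 197 and 175 reads (1.52, interval 1.23 to 1.87). let-7f-5p, of the let-7 family known from differentiation, had 116 and 103 reads (1.51, interval 1.15 to 1.99), and miR-122-5p, the main miRNA of liver, had 121 and 106 reads (1.49, interval 1.14 to 1.96). In each of these 4 the share was higher in the 2PN library by less than 2-fold, and in RPM miR-23b-3p was level (229.9 and 228.3 RPM). The other 3 had RPM ratios of 1.14 to 1.16, and under median-of-ratios factors none of the 4 was above 1. The fifth, miR-23a-3p, is described with the larger differences.

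**Figure D2:**
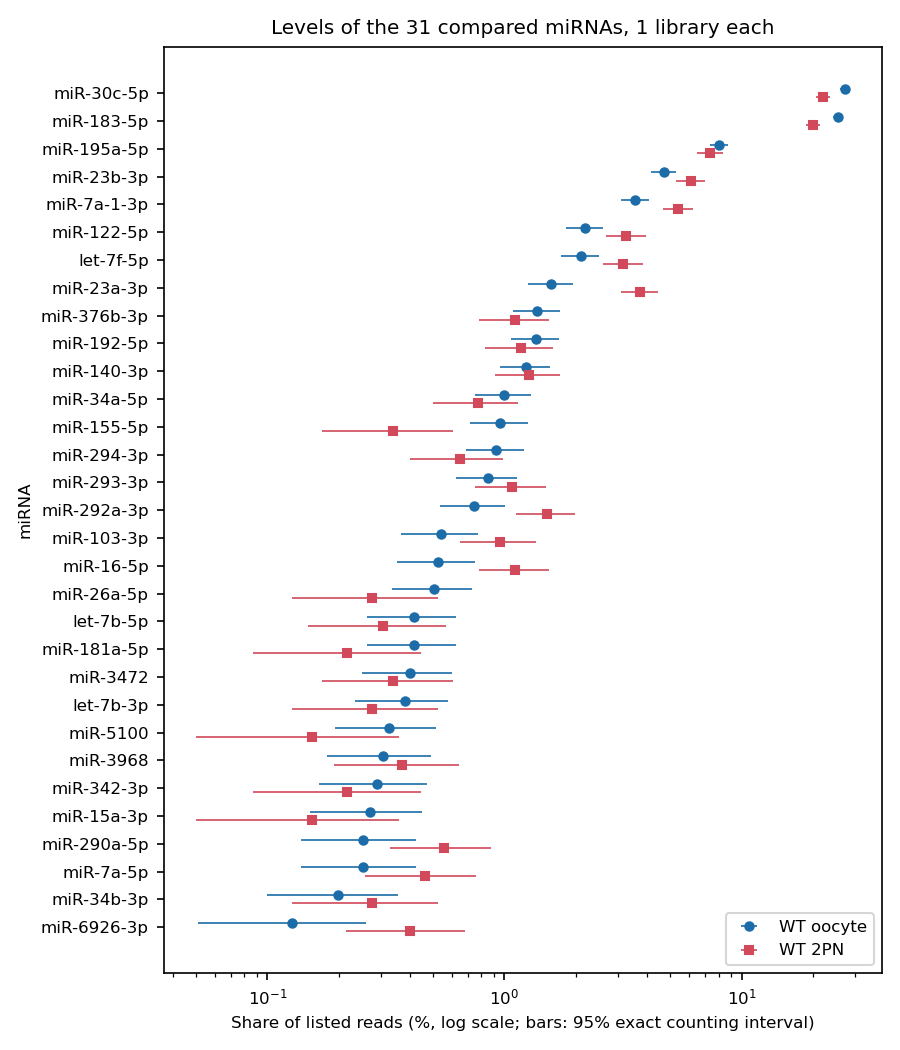
Share of listed reads (horizontal axis, %, log scale) of the 31 miRNAs with at least 20 reads over both libraries, with circles for the WT oocyte, squares for the WT 2PN embryo and bars for the 95% exact (Clopper-Pearson) counting interval. miR-30c-5p and miR-183-5p stand apart at 20.01% to 27.3%, and most pairs of intervals overlap.

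Ratios were read for the 31 features with at least 20 reads over both libraries, all of them miRNAs, which held 88.6% of the oocyte reads and 85.1% of the 2PN reads. Of these, 5 (16.1%) had a share at least 2-fold higher in the 2PN library, 2 (6.45%) at least 2-fold lower and 24 neither. The 95% interval lay wholly above 1 for 10 miRNAs (32.3%) and wholly below 1 for 3 (9.68%), 13 in all (41.9%). The median ratio was 0.916, or -0.13 on the log2 scale, with 15 ratios above 1 and 16 below. In RPM 1 miRNA was at least 2-fold higher and 5 were at least 2-fold lower. As a measure of the spread between libraries of 1 group, the 2 WT sperm libraries differed at least 2-fold in 118 of 296 features (39.9%), 52 higher in replicate 2 (17.6%) and 66 lower (22.3%), and in 11 of 56 (19.6%) among features with a mean share of at least 0.228%, the share that 20 reads make here. The 7 of 31 miRNAs past 2-fold in either direction (22.6%) are close to that share between replicates of sperm. The match is by share and not by reads, as the sperm libraries held 73377 and 278890 listed reads. Counting error therefore weighs more on the oocyte and 2PN ratios than on those of sperm.

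**Figure D3:**
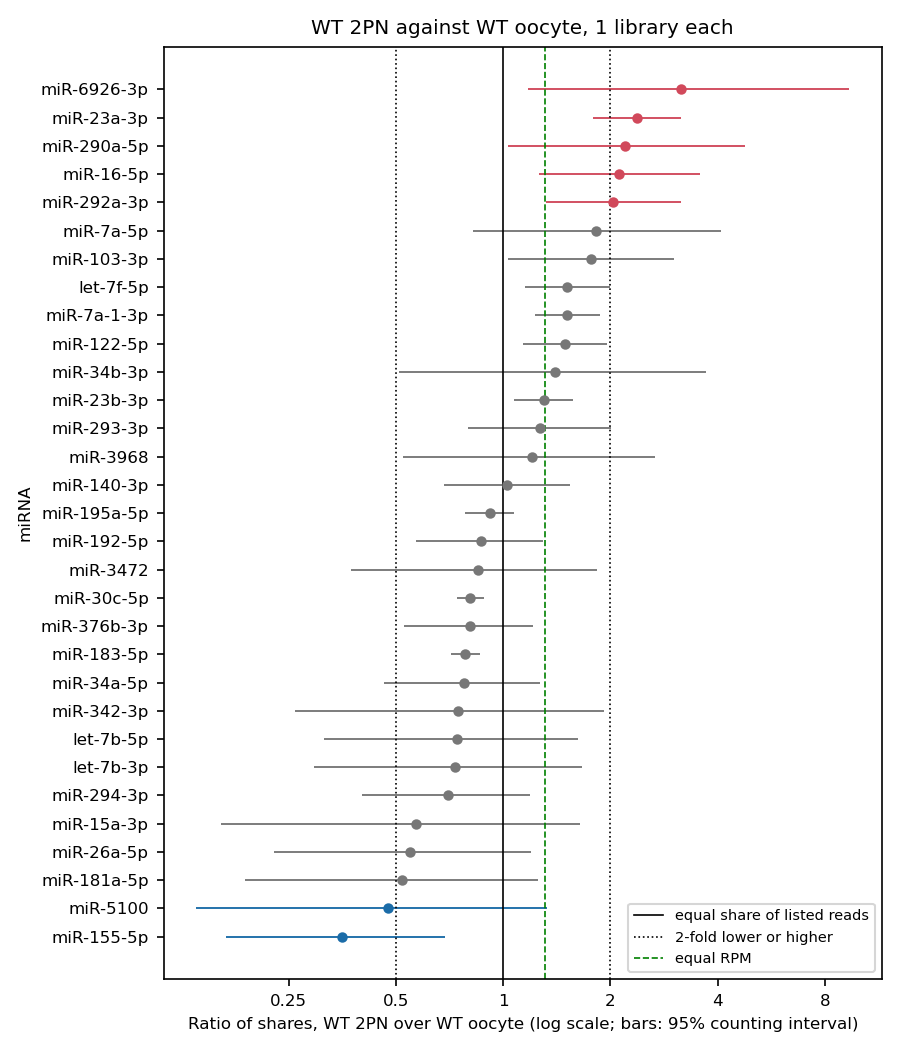
Ratio of shares, WT 2PN over WT oocyte (horizontal axis, log scale), for the 31 compared miRNAs, with 95% counting intervals; red points are at least 2-fold higher and blue points at least 2-fold lower. The dashed line marks where RPM would be equal, and miR-6926-3p at 3.17 and miR-155-5p at 0.354 are the ends of the range.

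Among the 5 miRNAs at least 2-fold higher, miR-23a-3p had the most reads, 87 of 5530 in the oocyte (1.57%, interval 1.26% to 1.94%) and 121 of 3243 in the 2PN library (3.73%, interval 3.11% to 4.44%), a ratio of 2.37 (interval 1.79 to 3.16). It is the first miRNA of the miR-23a/27a/24-2 cluster and differs from miR-23b-3p near its 3′ end, so reads could be split between the 2. Pooled, they gave 347 and 319 reads and a ratio of 1.57 (interval 1.34 to 1.83). miR-16-5p, a broadly expressed relative of miR-195a-5p, had 29 and 36 reads (2.12, interval 1.26 to 3.58). From the miR-290 to miR-295 cluster, miR-292a-3p had 41 and 49 reads (2.04, interval 1.32 to 3.17) and miR-290a-5p 14 and 18 (2.19, interval 1.03 to 4.76). miR-6926-3p had 7 and 13 reads (3.17, interval 1.17 to 9.37). Only miR-6926-3p stayed at least 2-fold higher in RPM. The other 4 had RPM ratios of 1.56 to 1.81. In the 2PN libraries of Dicer cKO and Drosha cKO sperm, these 4 had lower shares than in the oocyte. There miR-23a-3p was at 0.712% and 0.725%, and miR-16-5p at 0.237% and 0.335% (oocyte 0.524%). miR-292a-3p was at 0.1355% and 0.435% (oocyte 0.741%), and miR-290a-5p at 0% and 0.0223% (oocyte 0.253%). miR-6926-3p was above its oocyte share (0.127%) with Dicer cKO sperm, at 0.407%, and below it with Drosha cKO sperm, at 0.0892%. For miR-16-5p and miR-6926-3p the counting intervals of both these libraries overlapped that of the oocyte. For miR-292a-3p only the interval with Drosha cKO sperm did so.

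The lower side was led by miR-155-5p, known from activated immune cells. It had 53 reads in the oocyte (0.958%) and 11 in the 2PN library (0.339%), a share 2.83-fold lower (interval 1.46 to 6.00). Its reads were 13 in the 2PN library of Dicer cKO sperm and 97 in that of Drosha cKO sperm (0.441% and 1.08%). miR-5100 had 18 and 5 reads, 2.11-fold lower with an interval of 0.755 to 7.27 that includes no difference. Both were at least 2-fold lower under every scaling tried. Values just inside and outside the limit of 2-fold were miR-5100 and miR-181a-5p, whose 23 and 7 reads were 1.93-fold lower, and miR-292a-3p and miR-7a-5p, whose 14 and 15 reads gave a ratio of 1.83.

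Below 20 reads the intervals widen, and a further 24 features had 10 to 19 reads. With a minimum of 10 reads, 15 of 55 miRNAs were at least 2-fold higher and 4 lower. let-7a-5p had 5 reads in the oocyte and 13 in the 2PN library (4.43, interval 1.48 to 15.9). The imprinted miR-376a-3p had 6 and 13 (3.70, interval 1.31 to 11.9), while its neighbour miR-376b-3p, with 76 and 36, was 1.24-fold lower (interval 0.822 to 1.90). On the lower side miR-146b-5p, a miRNA of immune signalling chosen after its values were seen, had 15 and 2 reads (4.40-fold lower, interval 1.02 to 39.6).

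Summed over its 17 listed members, 14 of them with a read, the miR-290 to miR-295 cluster had 189 reads in the oocyte (3.42%) and 157 in the WT 2PN library (4.84%), a ratio of 1.42 (interval 1.14 to 1.76). In RPM the ratio was 1.08. The members with most reads moved unevenly: the 3p arms miR-292a-3p and miR-293-3p had 41 and 47 reads in the oocyte and 49 and 35 in the 2PN library, while miR-294-3p, whose seed is that of the stem cell miRNAs of the cluster, had 51 and 21 (1.42-fold lower, interval 0.842 to 2.49). Of the 4 members with at least 20 reads, 2 were at least 2-fold higher and none lower, beside 5 higher (16.1%) and 2 lower (6.45%) of all 31. Neither of the 2 reached 2-fold in RPM, where miR-292a-3p had a ratio of 1.56 and miR-290a-5p of 1.68. The median log2 ratio of the 4 was 0.69, against -0.13 over all 31 miRNAs. The cluster summed to 16 reads (0.542%) in the 2PN library of Dicer cKO sperm and 139 (1.55%) in that of Drosha cKO sperm, both lower shares than in the oocyte. All 3 2PN libraries are set against the same oocyte library, with 1 library each.

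Sperm-borne RNA was followed through the 8 features with the highest mean share in WT sperm, which made up 41.4% and 47.1% of the 2 sperm libraries. Together they held 45 reads in the oocyte (0.814%) and 62 in the WT 2PN library (1.91%), a ratio of 2.35 (interval 1.58 to 3.53). Without miR-16-5p, the most abundant of them in both libraries, 16 and 26 reads remained (2.77, interval 1.43 to 5.53). Of these, miR-19b-3p and miR-19a-3p together held 2 and 18 reads, so the higher share rests on the 2 miR-19 sequences. In RPM both ratios are 0.39 lower on the log2 scale. The 8 summed to 0.542% in the 2PN library of Dicer cKO sperm and 0.714% in that of Drosha cKO sperm. Among them miR-19b-3p, of the miR-17-92 cluster, had 2 reads in the oocyte and 14 in the 2PN library (11.9, interval 2.74 to 108). miR-19a-3p had 0 and 4 reads, at least 2.27-fold higher with the oocyte set to a floor of 3 reads, and the lower limit of its counting interval was 1.13. Of the others, miR-34c-5p, the best known sperm-borne miRNA, had 1 and 1 reads, miR-34b-5p 3 and 1, miR-191-5p 4 and 5, miR-30b-5p 5 and 1, and miR-15b-5p 1 and 0. In sperm, miR-34c-5p had 0.711 and 0.502 reads for each read of miR-19b-3p, and in the WT 2PN library 0.0714 (1 against 14 reads, interval 0.00169 to 0.470). The proportion of the 2 miRNAs in sperm lay outside the counting interval of the 2PN library, in sperm replicate 2 only just. This pair was chosen after its values were seen, so the interval does not hold its 95% here. Reads that the oocyte itself had were not taken off, and no conclusion is drawn. miR-19b-3p and miR-34c-5p had 0 and 0 reads in the 2PN library of Dicer cKO sperm and 1 and 1 in that of Drosha cKO sperm.

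**Figure D4:**
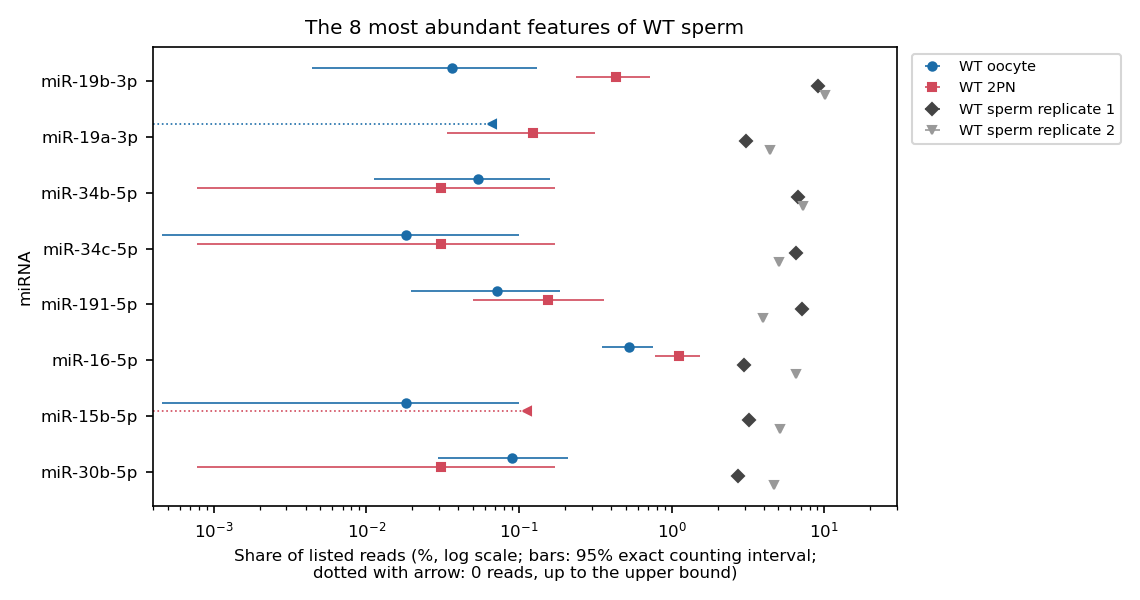
Share of listed reads (horizontal axis, %, log scale) of the 8 most abundant features of WT sperm in the WT oocyte, WT 2PN and 2 WT sperm libraries, with 95% exact counting intervals; a dotted line with an arrow marks 0 reads up to the upper bound. miR-19b-3p is at 0.432% in the 2PN library, above the oocyte interval, and every feature is higher in both sperm libraries.

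Sperm values carry a further limit. For 5 miRNAs the list holds a name without a letter (miR-292-3p, for example) and one with the letter a (miR-292a-3p). The names without the letter had 515 reads in the 7 sperm libraries and 0 in the 4 oocyte and 2PN libraries, and the names with it 0 and 143 reads. A 0 in sperm, or in the oocyte and 2PN libraries, can thus belong to the naming. The oocyte and 2PN libraries fell on the same side wherever they had reads. This rests on miR-292a-3p with 133 reads and miR-292a-5p with 7. The names miR-142a-5p, miR-486a-3p and miR-7036a-3p had 1 read each over the 4 libraries and could not show the libraries on different sides.

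By family and cluster, summed shares moved in both directions. The miR-23/27/24 clusters had 353 and 322 reads (1.56, interval 1.33 to 1.81), almost wholly miR-23a-3p and miR-23b-3p. The miR-7 family had 211 and 191 (1.54, interval 1.26 to 1.89), the let-7 and miR-98 family 192 and 159 (1.41, interval 1.14 to 1.75) and the miR-103 and miR-107 family 31 and 32 (1.76, interval 1.04 to 2.98). The miR-17-92 cluster with its paralogs had 33 and 41 reads (2.12, interval 1.31 to 3.46), of which miR-25-3p held 14 and 5 and miR-19b-3p 2 and 14. These intervals lie above 1. The miR-30 family had 1522 and 726 reads (0.813, interval 0.744 to 0.889) and the miR-183 cluster with miR-182 and miR-96 had 1419 and 655 (0.787, interval 0.716 to 0.864), each nearly all from its leading miRNA. Intervals that include 1 belonged to the miR-15/16 family (507 and 288 reads, ratio 0.969), the imprinted Dlk1-Dio3 cluster (97 and 73, ratio 1.28), the Sfmbt2 intron cluster families (50 and 27, ratio 0.921) and the family of miR-34 with miR-449 (71 and 38, ratio 0.913), which was mostly miR-34a-5p with 55 and 25 reads. In RPM these 5 lists above 1 had ratios from 1.08 to 1.62, whereas the Dlk1-Dio3 cluster fell below 1 (0.982). Under median-of-ratios factors the let-7 list and the miR-290 to miR-295 cluster also fell below 1. The 712 endo-siRNAs had 13 reads in the oocyte (0.235%) and 6 in the 2PN library (0.185%), and 701 of them had none in either.

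**Figure D5:**
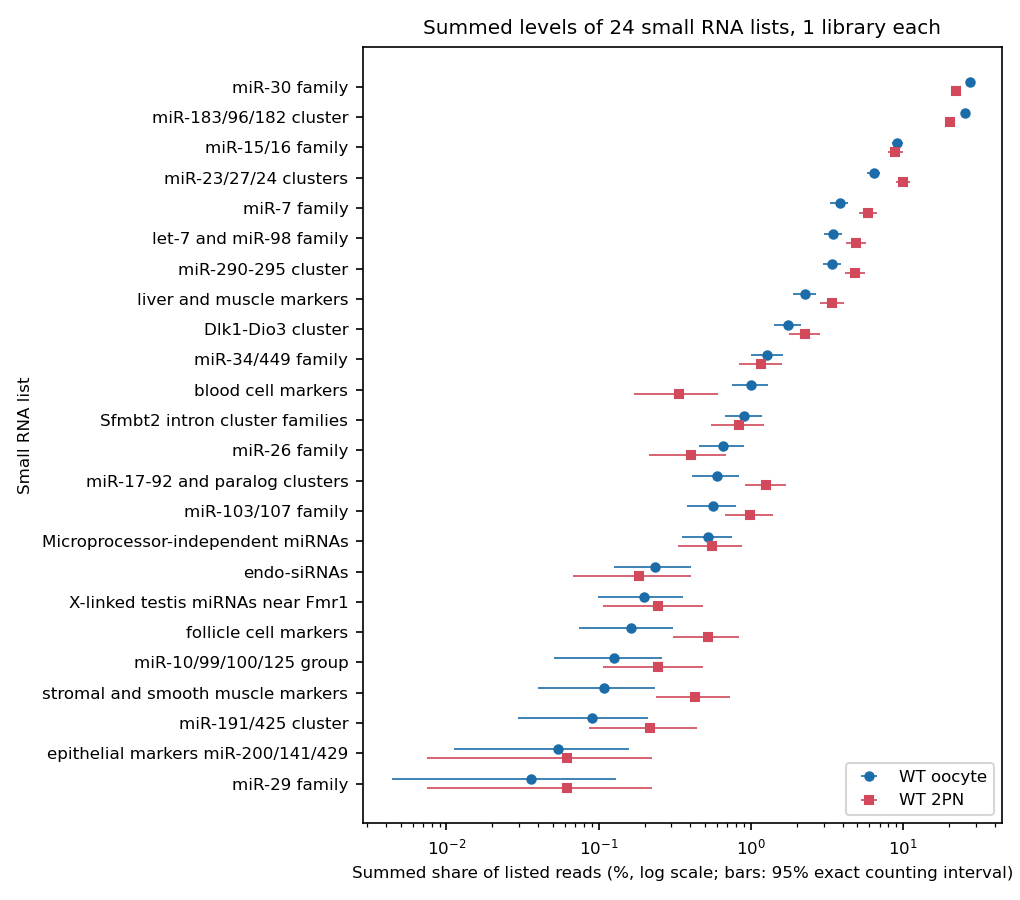
Summed share of listed reads (horizontal axis, %, log scale) of 24 lists of small RNAs in the WT oocyte (circles) and WT 2PN (squares), with 95% exact counting intervals. The miR-30 family and the miR-183 cluster lead in both, and the intervals stand apart for miR-23/27/24 and for the blood cell markers, among others.

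Markers of other cell types were few. The 13 blood cell markers had 55 reads in the oocyte and 11 in the 2PN library, of which miR-155-5p held all but 2 and 0, so that the rest were at or near 0. The 10 epithelial markers of the miR-200 family had 3 and 2 reads. The 10 stromal and smooth muscle markers had 6 and 14 reads (3.98, interval 1.44 to 12.6), led by miR-214-3p with 2 and 10, and the 14 markers of follicle cells, which surround the oocyte, had 9 and 17 (3.22, interval 1.36 to 8.20), led by miR-202-5p with 4 and 7 and miR-21a-5p with 2 and 8. Of the stromal and follicle markers, 6 of 10 and 8 of 14 had no read in either library. Whether such cells had a part in the differences above was not tested. The follicle markers made up 0.524% of the WT 2PN library, and 1.46% and 1.11% of the 2 WT sperm libraries. For the stromal markers these shares were 0.432%, and 0.861% and 0.343%. Nearly all reads of the liver and muscle markers were the 121 and 106 of miR-122-5p, which had 0 and 1 reads in the 2 WT sperm libraries.

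The 3 miRNAs whose arms are described here are a selection. In them the arm shares of the oocyte and WT 2PN libraries differed by less than their counting intervals, and both lay apart from sperm. In others, such as miR-183 and miR-23b, 1 arm held nearly all reads in the oocyte, WT 2PN and sperm libraries alike. The 3p arm of miR-7a held 93.4% of its reads in the oocyte (interval 89.1% to 96.3%) and 92.1% in the 2PN library, against 47.8% and 20.8% in the 2 sperm libraries. Its 3p reads are those of miR-7a-1-3p, from Mir7-1, whereas miR-7a-5p can come from Mir7-1 or Mir7-2. The miR-7a percentages are thus not arm shares of a single hairpin, and a difference between the 2 loci was not tested. For let-7b it held 47.7% and 47.4%, against 1.43% and 5.56% in sperm. Likewise miR-15a had 13 reads on 5p and 15 on 3p in the oocyte, 5 and 5 in the 2PN library, and 0.104% and 0.0393% on 3p in sperm. In the 2PN library of Drosha cKO sperm the 3p share was 78.8% for miR-7a, 12.4% for let-7b and 40% for miR-15a. In that of Dicer cKO sperm it was 96.7%, 59.5% and 33.3%. Over all reads with a named arm the 3p share was 22.8% in the oocyte and 31.4% in the 2PN library, while miR-30c-5p and miR-183-5p, both 5p, made up 52.8% and 42.1% of the listed reads. Neighbours in 1 cluster, chosen after their values were seen, were very unequal at both stages. miR-183-5p had 1412 and 649 reads, and miR-182-5p, whose mature sequence starts 3749 bases away, 6 and 3. Per read of miR-182-5p there were 235 reads of miR-183-5p in the oocyte (interval 108 to 642) and 216 in the 2PN library (interval 73.7 to 1052), against 0.409 and 1.17 in sperm. miR-195a-5p, which shares a seed but no cluster with miR-16-5p, had 15.3 reads for each read of miR-16-5p in the oocyte (interval 10.5 to 23.2) and 6.64 in the 2PN library (interval 4.66 to 9.71), against 0.0253 and 0.0200 in sperm.

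Seeds were grouped over the miRNAs matched to RefSeq by name (1333 of 1592 listed, 28 of the 31 compared). These held 90.4% of the miRNA reads of the oocyte and 87.5% of those of the 2PN library. miR-23b-3p, miR-122-5p and miR-292a-3p, all with larger shares in the 2PN library, were not matched. Shares of matched reads are therefore not on the same base as shares of listed reads. The seed GUAAACA of miR-30 held 30.3% of matched reads in the oocyte and 25.5% in the 2PN library. The seed AGCAGCA of miR-195a-5p, miR-16-5p and miR-15a-5p held 9.79% and 9.89% (interval of the ratio 0.869 to 1.17). GAGGUAG, the let-7 seed, rested on 153 and 139 reads (3.07% and 4.91%, ratio 1.60, interval 1.26 to 2.03). GUGCAAA, the seed of both miR-19 sequences printed above, had 2 and 18 reads, a ratio of 15.9 with a lower bound of 3.79. A 5′ U began 80.3% of matched reads in the oocyte and 72.3% in the 2PN library; without miR-30c-5p and miR-183-5p, which both begin with U, the shares were 52.4% and 46.5%.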

How the data were processed

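Small RNA of mouse oocytes, sperm and 2PN embryos had been sequenced, and the authors deposited raw read counts and RPM for each listed miRNA and endo-siRNA. The submitters' processing notes name Bowtie and build mm10; tool versions, how multiply mapped reads were counted, the miRNA annotation and where the endo-siRNAs were taken from were all not given in the sources used here. Deposited RPM times its divisor gave whole reads back. From the counts, each feature's share of listed reads was taken with its exact (Clopper-Pearson) 95% interval. The ratio of shares was given an exact conditional binomial interval (Python 3.11.15, scipy 1.17.1). Its code was checked on simulated independent Poisson counts with known library sizes, which is the case the interval is made for. That check cannot show how well the interval covers PCR reads, which are not independent. Ratios were read for features with at least 20 reads over both libraries. TMM factors came from edgeR 4.0.16 in R 4.3.3; no edgeR test was run, for want of replicates. Named features are the 10 with most reads in the oocyte and in the WT 2PN library, the 10 largest ratios each way, up to 4 members with most reads from each of 24 lists, and the 8 most abundant of WT sperm. Alternatives covered scaling, read minimum, threshold and pooling. Members and lists were chosen with earlier results of these data known. Sequences were matched by name to RefSeq tables on GRCm38.p6. The genome of another build was not used here.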

Additional observations from a re-analysis of the deposited data

How the results depend on the processing

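Against 5 miRNAs at least 2-fold higher and 2 at least 2-fold lower, deposited RPM gave 1 and 5, TMM factors 1 and 5, and median-of-ratios size factors 1 and 9. Totals without miR-30c-5p gave 3 higher (3 lower), and miRNA reads alone 5 and 2. A minimum of 10 reads gave 15 and 4 of 55, and a minimum of 50 reads 3 and 1 of 18. With no minimum, 46 were counted higher and 15 lower among the 401 features read in either library. The 102 features read in the 2PN alone and the 152 read in the oocyte alone cannot all be in these counts. The 46 and 15 are thus not shares of all 401. A 3-fold threshold gave 1 and 0, and an interval off 1 gave 10 and 3. Adding 0.5 reads left 1 lower. Choices added after seeing the data were pooling miR-23a-3p with miR-23b-3p (4 and 2 of 30) and leaving out miR-5100, miR-3968, miR-3472 and miR-6926-3p (4 and 1 of 27). Rescaling shifts every ratio by the same factor, and stricter minimums leave fewer features; other causes were not tested. The ratios of let-7f-5p, miR-122-5p, miR-34b-3p, miR-23b-3p, miR-293-3p, miR-140-3p and miR-3968 fell below 1 under median-of-ratios factors, which put miR-7a-1-3p at 1, and those of the last 4 also in RPM. Of 97 other values, 13 moved beyond their interval in RPM, 7 under TMM and 18 under median-of-ratios. No paired analysis was possible because each group has 1 library and no test was made. Leaving out a replicate was not possible for the same reason. With 5530 and 3243 listed reads, features under about 20 reads could not be ordered.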
